A study of Mus musculus with 6 samples.

Results

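Sst Nppb itch neurons are the sensory neurons of the dorsal root ganglion that make somatostatin (Sst) and the B-type natriuretic peptide (Nppb). They were picked out of a table of single-cell counts from 6 mice by their counts of unique molecular identifiers (UMIs, each marking 1 captured RNA molecule). A cell was a member if Sst and Nppb together had 5 or more UMIs, if at least 1 UMI came from Il31ra, Osmr, Nts or Htr1f, if Mrgprd and Lpar3 together had fewer than 3, and if Mrgpra3 had fewer than 2. Of 21685 cells 1182 met this rule (5.45%), and 1135 of the 21024 cells kept after filters and removal of likely doublets (5.40%) were analysed. These are called Sst Nppb cells here. The members were chosen by the levels of these 9 genes, so those levels are given as a description with no test.

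The ganglia came from 3 groups of 2 mice, each group with 1 female and 1 male. Mice 654 and 657 were Ttpa-/- and had a diet deficient in vitamin E, mice 670 and 671 were Ttpa-/- and had a diet supplemented with vitamin E, and mice 698 and 699 were wild type (Ttpa+/+) on a basal diet. The protein lost in Ttpa-/- mice is the liver's transfer protein for alpha-tocopherol and keeps vitamin E in the circulation. Ttpa-/- mice were 6 months old and wild type mice 5 months, so age and diet go with genotype and cannot be told apart from it, and the labels name no strain and no deleted exon.

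Sst Nppb neurons are a small set of unmyelinated sensory fibres that carry itch from the skin. Their receptor for the T-cell cytokine interleukin 31 is a pair of Il31ra and Osmr, which passes its signal on through Janus kinases, and they also carry receptors for leukotrienes and serotonin. The B-type natriuretic peptide that they release acts in the spinal cord on neurons with the receptor Npr1. Among the other itch fibres, Mrgpra3 neurons respond to chloroquine, and Mrgprd Lpar3 neurons are non-peptidergic skin fibres that respond to beta-alanine.

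Stretches upstream of the 2 genes that name the cells are shown because both genes were high in the same cells. For each gene the window before the start given in the RefSeq promoter table (GRCm38.p6) was searched, chr16:23890845-23891094 on the minus strand for Sst and chr4:147985650-147985899 on the plus strand for Nppb. The RefSeq gene spans reach further upstream than these starts, so the Sst window lies inside its span (23889573 to 23891342) and the Nppb window runs into its own (from 147985786). Capitals mark the palindromic cyclic AMP response element TGACGTCA. The Sst line gives the element with its flanks (chr16:23890875-23890902) and the Nppb line the bases before its span (chr4:147985650-147985785), each 5′ to 3′ on the gene's own strand.
Sst: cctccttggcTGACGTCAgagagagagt
Nppb: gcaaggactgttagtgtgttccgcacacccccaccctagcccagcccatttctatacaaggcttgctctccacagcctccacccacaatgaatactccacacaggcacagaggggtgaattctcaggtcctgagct
The element began 48 bases before the Sst start in that table and was not in the Nppb window. It was in the same window of 1.77% of 27025 genes with an entry, and of 3.25% of the 8838 among them that were tested against all other cells. Of the 167 of these that were called and at least 4-fold higher in Sst Nppb cells, 4 had it (2.40%). The RUNX motif TGTGGT, searched on both strands, was in neither window. It was in 15.9% of the 27025 genes, 12.4% of the 8838 and 15.6% of the 167.

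The 6 libraries held between 12538785 and 19383933 UMIs. Sst Nppb cells numbered 287 and 130 in the deficient mice 654 and 657, 138 and 189 in the supplemented mice 670 and 671, and 182 and 209 in the wild type mice 698 and 699. Their summed counts were 998735, 667848, 442152, 730754, 851343 and 929769 UMIs in the same order of mice, and levels below are these sums per 1e6 UMIs (CPM). The median depth was 3922 UMIs per Sst Nppb cell and 3504 per other cell. Across libraries 522 cells carried a barcode that another library also held, 20 members among them, and no barcode was shared by 2 members.

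Sst stood between 1541 and 1934 CPM in Sst Nppb cells of the 6 mice (mean 1703 ± 148, SD, n = 6) and Nppb between 1072 and 1469 CPM (mean 1264 ± 129). In Mrgpra3 cells both genes were at most 3.39 CPM in any mouse, and in Mrgprd Lpar3 cells at most 1.79 CPM. Il31ra, the ligand-binding subunit of the interleukin 31 receptor, ranged from 77.5 to 136 CPM in Sst Nppb cells, and Osmr, its signalling partner, from 529 to 635 CPM. Of the 6 positive genes of the rule, Osmr stood at 42.7 to 77.8 CPM in Mrgpra3 cells and each of the others at no more than 3.41 CPM. Nts, the precursor of neurotensin, ranged from 671 to 880 CPM and Htr1f, a serotonin receptor coupled to inhibitory G proteins, from 297 to 396 CPM.

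**Figure D1:**
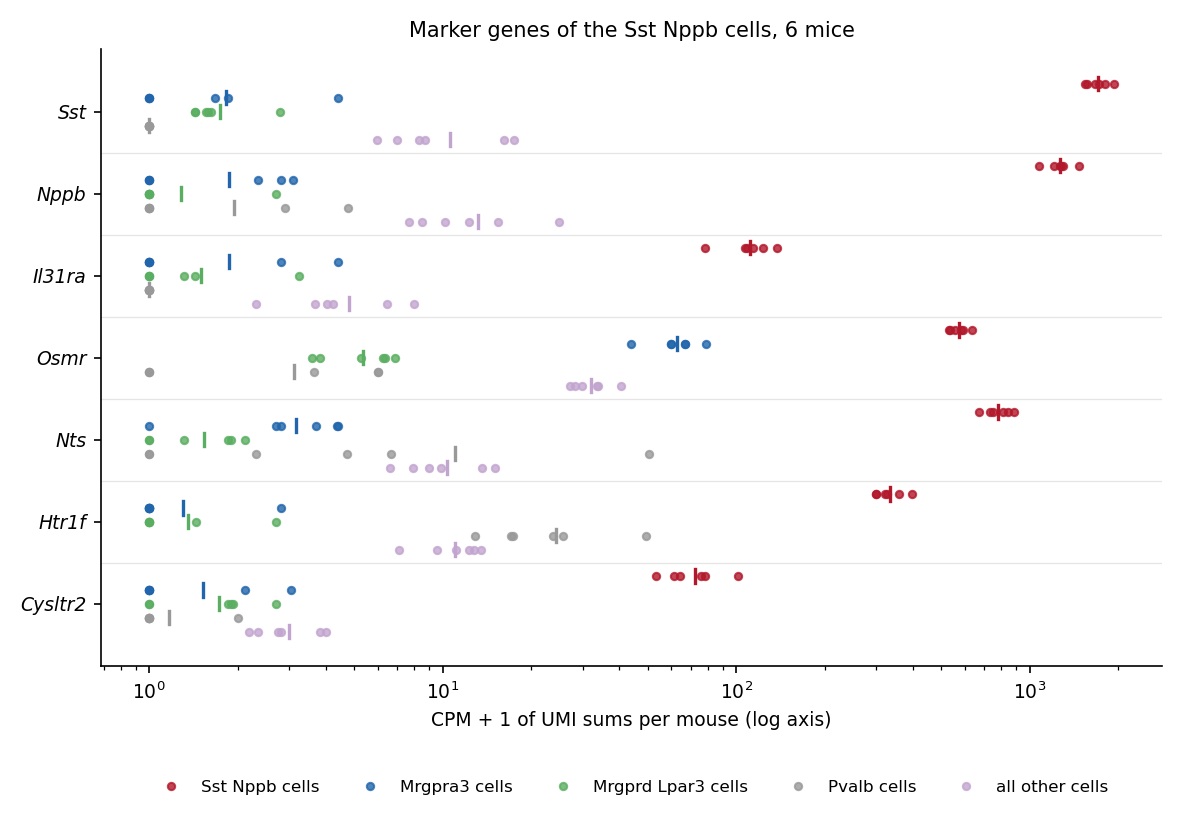
Level of 7 marker genes as CPM + 1 on a log axis, 1 point per mouse and a tick at the mean of 6 mice, in Sst Nppb cells, Mrgpra3 cells, Mrgprd Lpar3 cells, Pvalb cells and all other cells. Sst ran from 1541 to 1934 CPM in Sst Nppb cells, and for every gene shown the lowest Sst Nppb value lay above the highest value of each other set. All genes shown but Cysltr2 belong to the rule that picked the cells, so their separation was set in part by that choice.

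The 7 markers fixed for this cell type (the 6 positive genes of the rule and Cysltr2, the receptor for cysteinyl leukotrienes) were all higher in Sst Nppb cells than in all other cells of the same mouse in 6 of 6 mice, and their summed level ran from 4352 to 5076 CPM. For the 6 genes of the rule this was set in part by the choice of cells. Cysltr2, which the rule did not use, had between 52.1 and 100.03 CPM in Sst Nppb cells and at most 2.03 CPM in Mrgpra3 cells. To compare shares at 1 depth, each cell was thinned to 2000 UMIs, which left out 40 Sst Nppb, 20 Mrgpra3, 14 Mrgprd Lpar3 and 59 Pvalb cells. Pvalb cells, large myelinated neurons taken to lack these genes, were used to read the level that free RNA can reach. A UMI of Cysltr2 was then seen in 13.1% of Sst Nppb cells (95% exact binomial interval 11.1 to 15.2) and in 0 of the thinned Pvalb cells, against 24.1% of 1135 Sst Nppb cells and 0.133% of 753 Pvalb cells before thinning, at median depths of 3922 and 4297 UMIs. Il31ra was seen in 19.5% of thinned Sst Nppb cells and in 0 of the thinned Pvalb cells. Osmr reached 69.0% and 0.720%, and Nts 70.0% and 0.288%. Htr1f reached 49.0% of Sst Nppb cells but also 5.19% of Pvalb cells, more than Nts or Osmr did there. Whether Pvalb cells make Htr1f themselves was not tested, so for Htr1f they are no measure of free RNA. All intervals and floors cover counting error only.

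Markers of other sensory neurons were low in Sst Nppb cells. The 5 markers of Mrgpra3 neurons summed to 4.52 to 18.0 CPM over the 6 mice, the 5 of Mrgprd Lpar3 neurons to 29.0 to 38.9 CPM, the 4 of Th C-fibre mechanoreceptors to 6.78 to 20.4 CPM and the 6 of large myelinated neurons to 38.9 to 62.1 CPM, and of these 4 lists none of the genes was at 0 UMIs in all mice. Mrgpra3, Mrgprd and Lpar3 are held low by the rule itself. The 5 peptidergic markers summed to 248 to 416 CPM, with 1 of them at 0 UMIs. Satellite glia markers summed to 449.6 to 889 CPM and myelinating Schwann markers to 171 to 305 CPM. In all other cells the same sums were 435 to 886 CPM and 560 to 745 CPM, so the ranges for satellite glia overlapped. Macrophage, endothelial, fibroblast and erythroid markers summed to at most 36.2 CPM each in any mouse.

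The 2 naming peptides were found together. Both genes had a UMI in 1100 of 1135 cells (96.9%), 20 cells had no Sst and 15 no Nppb. Sst took a median of 57.1% of the 2 counts, with an interquartile range of 40.0% to 70.2% and a 5th to 95th percentile range of 16.7% to 85.7%. The median share was between 55.6% and 60.0% in each of the 6 mice. Within cells the 2 levels, each divided by the cell's UMIs, showed a Spearman correlation of -0.0837 over 1135 cells, and within single mice it ran from -0.259 to 0.170. The gate acts on the sum of the 2 counts, which itself shapes this value. A median of 6 Sst and 4 Nppb UMIs were counted per cell, with at most 46 and 32. Of the 4 partner genes, all 4 had a UMI in 211 cells (18.6%), 3 in 531, 2 in 320 and 1 in 73.

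The levels just inside and just outside the threshold of 5 UMIs are given with no test. Among kept cells that met the other conditions, 163, 188, 166 and 136 had 1, 2, 3 and 4 UMIs of Sst and Nppb, against 134, 119, 106 and 80 with 5, 6, 7 and 8. Jak1, the Janus kinase that serves the interleukin 31 receptor, stood at 2789 CPM in the cells with 4 UMIs just outside and at 2709 CPM in the cells with 5 UMIs just inside, and at 398 CPM in the 962 cells with 0. Npy2r, the receptor for peptide YY and neuropeptide Y of the Y2 type, stood at 662 CPM just outside and 636 CPM just inside. Calca, the gene of the peptide CGRP, was at 41.2 CPM with 4 UMIs, 51.2 CPM with 5 and 323 CPM with 1. Median depth was 2427 UMIs in cells with 1 such UMI, 2912.5 with 5 and 4546.5 in the 620 cells with 10 or more.
The genes did not follow Sst and Nppb in 1 direction. From cells with 5 UMIs to cells with 10 or more, Nts stood at 456 and 876 CPM, Gm525 at 721 and 1073 CPM and Tspan8 at 1165 and 1403 CPM. Over the same step Jak1 stood at 2709 and 2188 CPM, Osmr at 731 and 527 CPM and Npy2r at 636 and 479 CPM. These are levels of pooled cells from 6 mice, and depth moved with them. Outside the rule lay 19 cells with 5 or more Sst and Nppb UMIs, 9 of them for want of a partner gene, 4 for Mrgprd and Lpar3 and 6 for Mrgpra3.

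**Figure D2:**
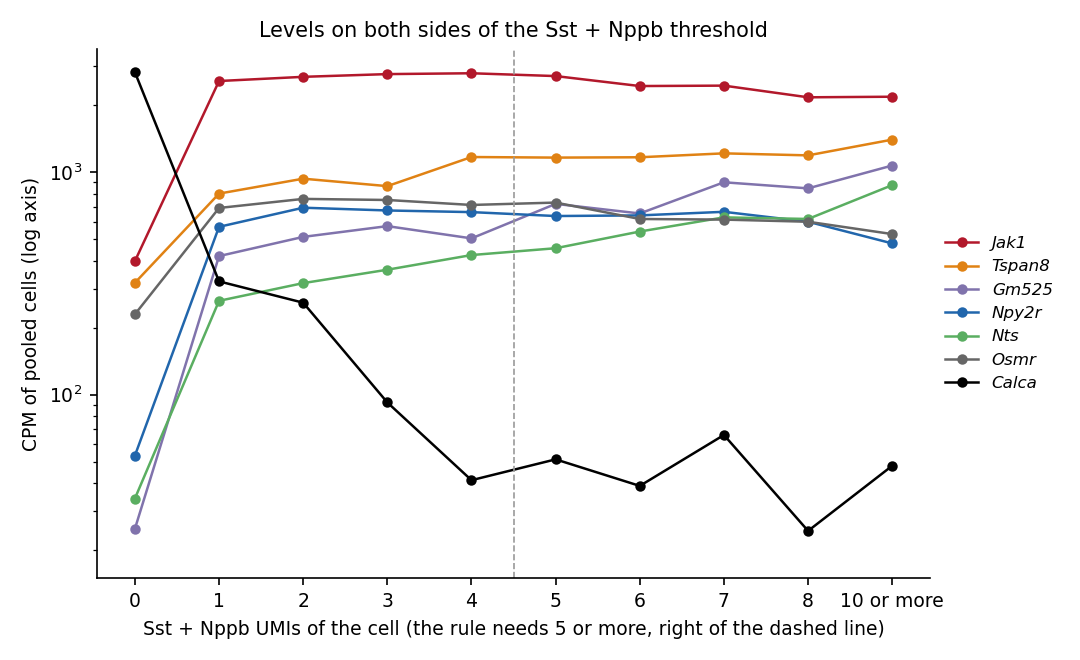
Level of 7 genes (CPM of pooled cells, log axis) by the number of Sst and Nppb UMIs of a cell, for kept cells of 6 mice that met the other conditions of the rule. Jak1 stood between 2174 and 2789 CPM in every bin from 1 UMI upward and at 398 CPM in cells with 0, and Calca, at most 323 CPM in the other bins, stood at 2820.4 CPM in cells with 0.

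Sst Nppb cells were compared with the 2 nearest itch and skin fibre sets of the same mice. Mrgpra3 cells (787, with 2 or more Mrgpra3 UMIs) and Mrgprd Lpar3 cells (1638, with 3 or more UMIs of those genes) both had fewer than 5 Sst and Nppb UMIs. Counts were summed per mouse and fitted with edgeR's quasi-likelihood test with mouse as a block, and p-values were adjusted by Benjamini-Hochberg over all genes tested, with a threshold of 0.05. Of 6976 genes tested against Mrgpra3 cells, 53.2% passed, 1880 higher (26.9%) and 1834 lower (26.3%). Of 7991 genes tested against Mrgprd Lpar3 cells, 62.1% passed, 2508 higher (31.4%) and 2455 lower (30.7%). A called gene is therefore common in both comparisons, and the sizes and levels below carry the description. Fold changes are log2, Sst Nppb over the other cells, ± standard error over 6 mice. The median depth was 3922 UMIs in Sst Nppb cells, 6609 in Mrgpra3 cells and 7776.5 in Mrgprd Lpar3 cells, and the part of depth in these differences was not tested.

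Of the cytokine signalling genes, Jak1 was higher in Sst Nppb cells than in both other sets and Il6st lower. Jak1 had 2238 to 2398 CPM in Sst Nppb cells, against 262 to 319 CPM in Mrgpra3 cells and 46.1 to 65.3 CPM in Mrgprd Lpar3 cells, with no overlap. The difference was 2.94 ± 0.05 from Mrgpra3 cells (adjusted p = 2.4e-57) and 5.38 ± 0.06 from Mrgprd Lpar3 cells (adjusted p = 1.6e-72). Every one of the 1135 Sst Nppb cells had a Jak1 UMI, and after thinning 98.4% did, against 43.9% of Mrgpra3 cells, 10.3% of Mrgprd Lpar3 cells and 67.7% of Pvalb cells. Jak1 is therefore not a gene of these cells alone. Socs2, an inhibitor of cytokine signalling, averaged 580 ± 50 CPM (SD, n = 6) in Sst Nppb cells, 186 ± 17 CPM in Mrgpra3 cells and 110 ± 7 CPM in Mrgprd Lpar3 cells. Socs3, the inhibitor induced by gp130 receptors, was higher by 2.24 ± 0.18 and 1.65 ± 0.14. Il13ra1, a subunit of the interleukin 13 receptor, averaged 23.3 CPM in Sst Nppb cells, 3.46 CPM in Mrgpra3 cells and 2.45 CPM in Mrgprd Lpar3 cells. Il6st, which encodes gp130, went the other way and was lower by -0.76 ± 0.08 and -0.54 ± 0.08. Of the 22 cytokine receptor and JAK-STAT genes listed, 12 were tested against Mrgpra3 cells, with 6 called higher and 1 lower, 58.3% in all against 53.2% of all genes tested (median 0.32, against -0.00335 over all genes tested). Against Mrgprd Lpar3 cells 6 of 13 were called higher and 2 lower, 61.5% against 62.1% of all genes tested (median 0.33, against 0.00589).

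Several receptors on G proteins were nearly limited to Sst Nppb cells among these 3 sets. Npy2r had 415 to 701 CPM in Sst Nppb cells, at most 1.70 CPM in Mrgpra3 cells and at most 1.71 CPM in Mrgprd Lpar3 cells. Npy2r had 2463 UMIs against 2 in Mrgpra3 cells, and the ratio of the sums was 1523 (95% counting limits 421 and 12582). Htr1a, a serotonin receptor, had 63.5 to 98.5 CPM and 397 UMIs in Sst Nppb cells and 0 UMIs in Mrgpra3 cells, so that it was at least 164-fold higher with a floor of 3 counts over the whole group. S1pr1, a receptor for sphingosine 1-phosphate, averaged 115 CPM in Sst Nppb cells, 7.64 CPM in Mrgpra3 cells and 0.532 CPM in Mrgprd Lpar3 cells (7.54 ± 0.22 from the last). Lpar1, a lysophosphatidic acid receptor, averaged 110 CPM in Sst Nppb cells, 9.78 CPM in Mrgpra3 cells and 4.26 CPM in Mrgprd Lpar3 cells. Ptafr, the receptor for platelet-activating factor, had 335 UMIs in Sst Nppb cells, 2 in Mrgpra3 cells and 3 in Mrgprd Lpar3 cells. Gpr139, an orphan-class receptor of neurons, averaged 123 CPM in Sst Nppb cells and 0.321 CPM in Mrgprd Lpar3 cells, and its level in Mrgpra3 cells is not given here. F2rl2, a thrombin receptor, was shared, at 213 CPM in Sst Nppb cells and 168 CPM in Mrgpra3 cells. Hrh1, the histamine receptor long tied to itch, averaged 12.6 ± 3.0 CPM in Sst Nppb cells and 23.8 ± 9.1 CPM in Mrgpra3 cells (SD, n = 6 each), and was at 0 UMIs in Mrgprd Lpar3 cells. Of 51 listed receptors 16 were tested in each comparison, with 8 called higher and 6 lower against Mrgpra3 cells and 9 higher and 6 lower against Mrgprd Lpar3 cells. In all 87.5% and 93.8% were called, against 53.2% and 62.1% of all genes tested.

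Among ion channels the same cells combined heat, oxidant and ATP channels with low Piezo2. Trpv1, the capsaicin receptor, had 86.8 to 127 CPM in Sst Nppb cells, against 31.7 to 47.4 CPM in Mrgpra3 cells and 3.58 to 8.75 CPM in Mrgprd Lpar3 cells. It was higher by 1.27 ± 0.12 and 4.07 ± 0.15. Trpm2, a cation channel opened by oxidative stress, averaged 74.4 CPM in Sst Nppb cells, 3.39 CPM in Mrgpra3 cells and 0.693 CPM in Mrgprd Lpar3 cells. P2rx2, an ATP-gated channel, averaged 52.1 CPM in Sst Nppb cells and 17.5 CPM in Mrgpra3 cells, and had 241 UMIs in Sst Nppb cells and 2 in Mrgprd Lpar3 cells. P2rx3, its usual partner subunit, was at 29.1 CPM in Sst Nppb cells, 20.8 CPM in Mrgpra3 cells and 76.1 CPM in Mrgprd Lpar3 cells. Trpa1, the irritant receptor, had 14.9 ± 3.6 CPM in Sst Nppb cells, 30.2 ± 7.6 CPM in Mrgpra3 cells and 56.8 ± 12 CPM in Mrgprd Lpar3 cells (SD, n = 6 each). Piezo2, the channel of touch, had 24.7 to 38.4 CPM in Sst Nppb cells, 73.4 to 123 CPM in Mrgpra3 cells and 261 to 291 CPM in Mrgprd Lpar3 cells. It was lower by -1.54 ± 0.14 and -3.19 ± 0.10.
The nociceptor sodium channels were closer. Scn10a (Nav1.8 protein) averaged 139 CPM in Sst Nppb cells, 206 CPM in Mrgpra3 cells and 199.8 CPM in Mrgprd Lpar3 cells, and Scn11a (Nav1.9 protein) 132, 241 and 226 CPM in the same order. Scn9a (Nav1.7 protein) averaged 269, 223 and 255 CPM. Scn10a was lower by -0.62 ± 0.08 and -0.58 ± 0.07, and Scn11a by -0.90 ± 0.08 and -0.83 ± 0.08. Kcnk2, a background potassium channel, was higher by 3.76 ± 0.40 and 1.92 ± 0.24, and Kcnip4, a partner of A-type potassium channels, lower by -1.57 ± 0.09 and -1.95 ± 0.08. Of 70 listed channels 40 were tested against Mrgpra3 cells (14 called higher, 16 lower) and 42 against Mrgprd Lpar3 cells (14 higher, 20 lower). The called shares were 75% and 81.0%, beside 53.2% and 62.1% of all genes tested.

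**Figure D3:**
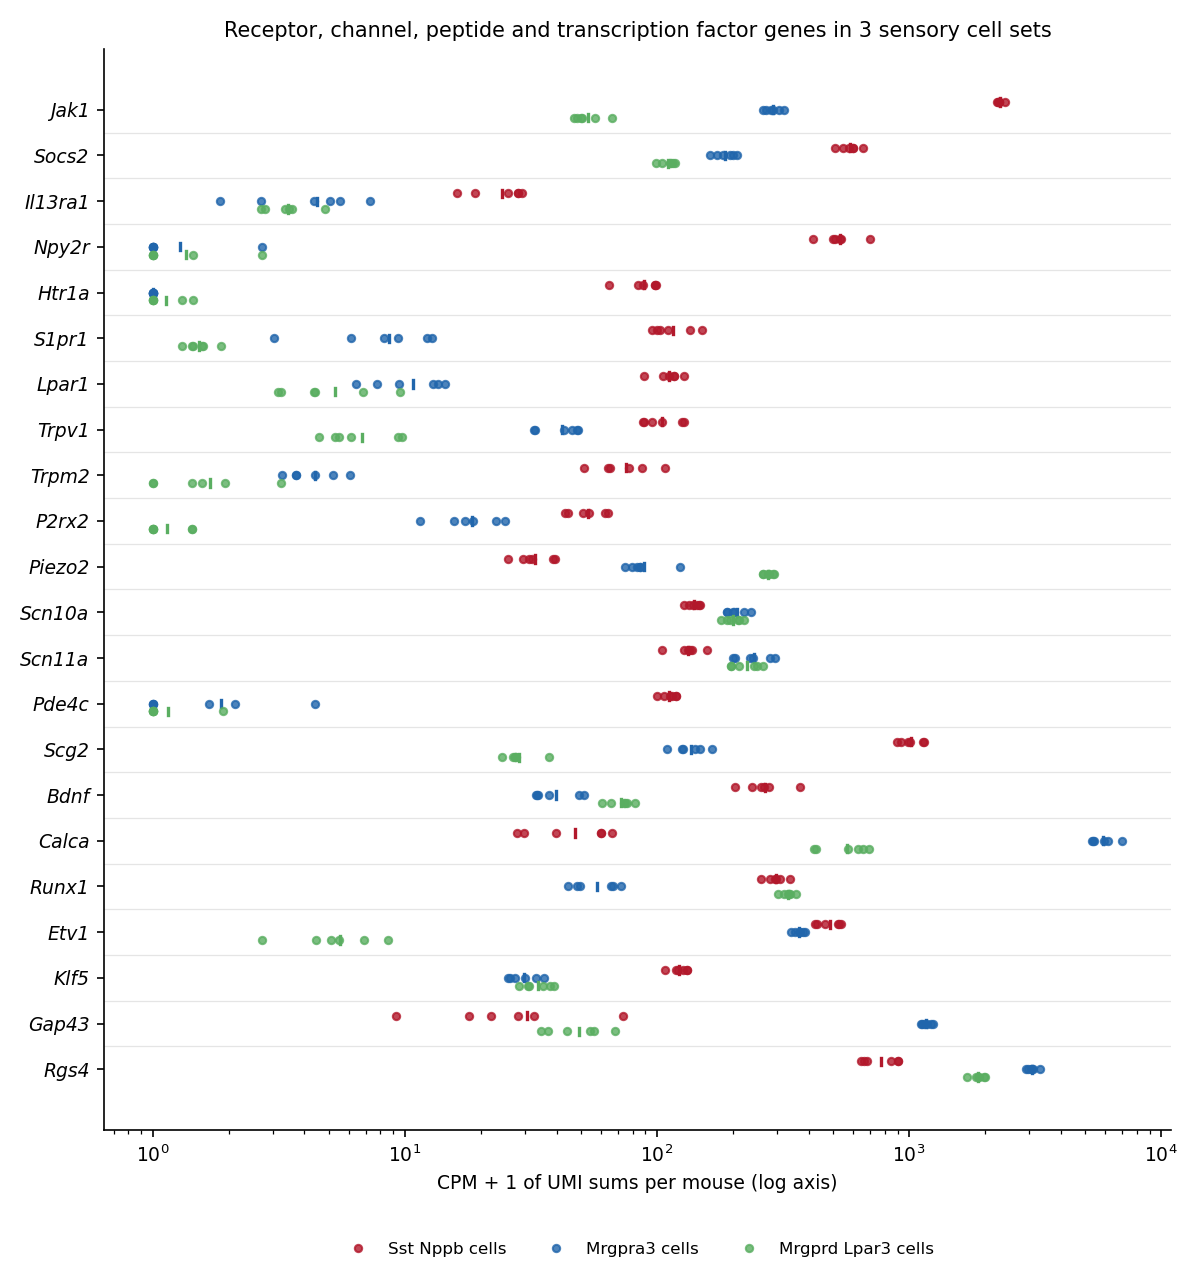
Level of 22 genes as CPM + 1 on a log axis, 1 point per mouse and a tick at the mean of 6 mice, in Sst Nppb cells, Mrgpra3 cells and Mrgprd Lpar3 cells. Jak1, Npy2r, Htr1a, S1pr1, Lpar1, Trpm2 and Pde4c lay higher in Sst Nppb cells than in both other sets in every mouse, and Calca, Piezo2, Scn10a and Rgs4 lay lower.

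Peptide genes differed in both directions, with the CGRP genes lower and Scg2 and Bdnf higher than in both other sets. Calca had 27.0 to 65.6 CPM in Sst Nppb cells, against 5331 to 7011 CPM in Mrgpra3 cells and 417 to 691 CPM in Mrgprd Lpar3 cells (-7.01 ± 0.08 and -3.62 ± 0.09). After thinning a Calca UMI was seen in 7.49% of Sst Nppb cells and 3.75% of Pvalb cells, against 95.8% of Mrgpra3 cells. Calcb, the second CGRP gene, averaged 21.6 CPM in Sst Nppb cells, 779 CPM in Mrgpra3 cells and 1448 CPM in Mrgprd Lpar3 cells. Tac1, the precursor of substance P, averaged 207 CPM in Sst Nppb cells and lay between the 96.6 CPM of Mrgpra3 cells and the 297 CPM of Mrgprd Lpar3 cells. After thinning a Tac1 UMI was seen in 28.1% of Sst Nppb cells, 16.2% of Mrgpra3 cells and 38.9% of Mrgprd Lpar3 cells. Pvalb cells reached 22.5%, and the part of free RNA in the Tac1 levels was not tested. Nmb, the precursor of neuromedin B, averaged 293 CPM in Sst Nppb cells, 482 CPM in Mrgpra3 cells and 814 CPM in Mrgprd Lpar3 cells. Scg2, a granin of secretory vesicles, averaged 1018 CPM in Sst Nppb cells, 135 CPM in Mrgpra3 cells and 27.4 CPM in Mrgprd Lpar3 cells. Bdnf, a neurotrophin that sensory neurons can release, averaged 268, 38.7 and 71.2 CPM in the same order. Pam, the enzyme that amidates peptides, was higher by 0.79 ± 0.06 and 1.12 ± 0.06, while Cpe, which trims prohormones, was lower by -0.43 ± 0.05 and -1.25 ± 0.05. Of 41 listed peptide and secretory genes 5 of 19 tested were called higher and 13 lower against Mrgpra3 cells, and 3 of 24 higher and 16 lower against Mrgprd Lpar3 cells. These make 94.7% and 79.2% called, against 53.2% and 62.1% of all genes tested. Synaptic release genes split as well. Slc17a6, the vesicular glutamate transporter, was lower by -1.68 ± 0.10 and -1.19 ± 0.10, and Snap25 was higher by 1.04 ± 0.05 and 0.65 ± 0.05.

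Some cyclic AMP and calcium signalling genes differed widely between the sets. Pde4c, a phosphodiesterase that breaks down cyclic AMP, had 98.8 to 118 CPM in Sst Nppb cells, against at most 3.39 CPM in Mrgpra3 cells and 0.895 CPM in Mrgprd Lpar3 cells. Adcy2, an adenylyl cyclase, averaged 30.9 CPM in Sst Nppb cells, 4.66 CPM in Mrgpra3 cells and 0.269 CPM in Mrgprd Lpar3 cells. Rgs4, which shortens G protein signals, averaged 772, 3063 and 1882 CPM, and Rgs7, a relative of it, 1.01, 74.4 and 206 CPM. Of the Necab genes of EF-hand calcium-binding proteins, Necab2 was higher by 1.71 ± 0.19 and 5.34 ± 0.27 and Necab3 by 2.56 ± 0.25 and 2.06 ± 0.18. Necab1 was lower by -1.51 ± 0.18 and -0.86 ± 0.18. These Necab1 values pool the mice of all groups. In Sst Nppb cells Necab1 had 109 UMIs in Ttpa-/- mice and 7 in wild type mice, so neither value describes a single group. Tesc, a calcium-binding protein gene, averaged 344 CPM in Sst Nppb cells, 19.0 CPM in Mrgpra3 cells and 0.655 CPM in Mrgprd Lpar3 cells, and Hpcal1, a neuronal calcium sensor gene, 1483, 569 and 4.10 CPM. Plcb3, the phospholipase C that acts below several itch receptors, averaged 101 ± 21 CPM in Sst Nppb cells, 87.9 ± 16 CPM in Mrgpra3 cells and 91.4 ± 7.7 CPM in Mrgprd Lpar3 cells (SD, n = 6 each), a spread in which the sets overlapped. Of 65 listed genes 40 were tested against Mrgpra3 cells, with 18 called higher and 16 lower, and 45 against Mrgprd Lpar3 cells, with 21 higher and 21 lower. In all 85.0% and 93.3% were called, against 53.2% and 62.1% of all genes tested. Of the natriuretic peptide receptors, Npr2 had 76 UMIs in all Sst Nppb cells (mean 15.6 ± 6.6 CPM, SD, n = 6), Npr1 had 7 and Npr3 had 0, and 0 of 1135 cells allows a share of up to 0.264% with an Npr3 UMI.

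Lineage genes were shared in part with each of the other sets. Runx1, a transcription factor of non-peptidergic neurons, averaged 295 ± 26 CPM in Sst Nppb cells, 56.8 ± 12 CPM in Mrgpra3 cells and 329 ± 18 CPM in Mrgprd Lpar3 cells (SD, n = 6 each). Etv1, an ETS factor, averaged 483 CPM in Sst Nppb cells, 365 CPM in Mrgpra3 cells and 4.54 CPM in Mrgprd Lpar3 cells. Klf5 averaged 122, 28.7 and 32.8 CPM in the same order. Casz1 and Barx2, other transcription factor genes, were almost absent. Casz1 had 5 UMIs in Sst Nppb cells, 607 in Mrgpra3 cells and 1698 in Mrgprd Lpar3 cells, and Barx2 had 0, 7 and 1012. Ovol2, a zinc finger factor gene, had 0 UMIs in Sst Nppb cells and 343 in Mrgpra3 cells, at least 92.5-fold lower in Sst Nppb cells. Ret, the signalling receptor of the GDNF family, averaged 159 CPM in Sst Nppb cells, 320.05 CPM in Mrgpra3 cells and 391 CPM in Mrgprd Lpar3 cells. Gfra3, the co-receptor for artemin, averaged 37.4 CPM in Sst Nppb cells, 2.35 CPM in Mrgpra3 cells and 0.834 CPM in Mrgprd Lpar3 cells. Of the lineage transcription factors tested, 6 of 19 were called higher and 11 lower against Mrgpra3 cells, and 10 of 20 higher and 9 lower against Mrgprd Lpar3 cells. Neurotrophin and GDNF receptors were called higher for 1 of 6 and lower for 5 against Mrgpra3 cells, and higher for 3 of 8 and lower for 5 against Mrgprd Lpar3 cells. Called shares were 89.5% and 95% for the transcription factors and 100% and 100% for these receptors. Over all genes tested they were 53.2% and 62.1%.

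Among called genes with an average log2 CPM of 5 or more and 1 direction in all 6 mice, those with the largest excess over Mrgpra3 cells were Gm525, Npy2r, Ptprk (a receptor tyrosine phosphatase), 9230105E05Rik, Htr1a, Ildr2, 1700011L22Rik, Ifitm1, Gstt2 and Ptafr. Gm525 had 897 to 1042 CPM in Sst Nppb cells, and its sums of 4501 and 3 UMIs stood in a ratio of 1855 (95% counting limits 634 and 9000.1). Those lowest were Ovol2, Ly86, Calca, Sorl1, Synpr, Efcab10, Prkar2b, Rspo1, Casz1 and Car10. Ly86, a partner of a Toll-like receptor relative, averaged 1.96 CPM in Sst Nppb cells, 339 CPM in Mrgpra3 cells and 624 CPM in Mrgprd Lpar3 cells. Synpr, a synaptic vesicle protein gene, averaged 8.31, 891 and 1349 CPM. By the same rule the largest excess over Mrgprd Lpar3 cells was in Gm525, Npy2r, Tesc, 1700011L22Rik, Pde4c, Resp18, Ptprk, Hpcal1, Gpr139 and S1pr1, and the largest deficit in 9130204L05Rik, Barx2, Agtr1a, Ms4a3, Ly86, Rph3a, Rgs7, Kcnab1, Plcxd3 and Synpr. Agtr1a, an angiotensin receptor, had 0 UMIs in Sst Nppb cells and 698 in Mrgprd Lpar3 cells, at least 78.9-fold lower in Sst Nppb cells.

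State-dependent genes differed too. Immediate early and dissociation genes were called higher in Sst Nppb cells for 17 of 22 tested against Mrgpra3 cells, with 3 called lower (median 1.57). Against Mrgprd Lpar3 cells 21 of 25 were called higher and 4 lower (median 1.87). In all 90.9% and 100% were called, against 53.2% and 62.1% of all genes tested. Fos averaged 550.3 ± 96 CPM in Sst Nppb cells, 197 ± 34 CPM in Mrgpra3 cells and 144 ± 22 CPM in Mrgprd Lpar3 cells (SD, n = 6 each), and Jun 432, 73.0 and 83.5 CPM. Atf3, a stress and injury factor, averaged 157, 21.2 and 28.6 CPM, and Gadd45b, a stress response gene, 72.3, 10.1 and 3.99 CPM. Mitochondrially encoded genes were called higher for 11 of 13 and 12 of 13 (84.6% and 92.3%), with none called lower (medians 0.47 and 0.64). Immediate early genes can be induced when cells are taken from tissue, and their part in the other differences was not tested. Cholesterol synthesis genes were called lower for 9 of 24 and higher for 4 against Mrgpra3 cells, and lower for 21 of 24 and higher for 0 against Mrgprd Lpar3 cells (median -0.99). The called shares were 54.2% and 87.5%, the first close to the 53.2% of all genes tested and the second beside 62.1%. Hmgcs1, an early enzyme of the pathway, averaged 172 CPM in Sst Nppb cells, 309 CPM in Mrgpra3 cells and 359.8 CPM in Mrgprd Lpar3 cells. Of the antioxidant genes, 8 of 31 tested were called higher and 12 lower against Mrgpra3 cells (64.5% called), and 8 of 34 higher and 18 lower against Mrgprd Lpar3 cells (76.5% called). Gpx3, a secreted glutathione peroxidase, averaged 133 CPM in Sst Nppb cells, 10.6 CPM in Mrgpra3 cells and 2.07 CPM in Mrgprd Lpar3 cells.

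Against all 19889 other kept cells 11602 genes were tested and 56% passed, 2777 higher (23.9%) and 3724 lower (32.1%). These other cells included those that met the other conditions of the rule but had 1 to 4 Sst and Nppb UMIs. Such cells stood at 2574 to 2789 CPM of Jak1, 420 to 573 CPM of Gm525 and 569 to 693 CPM of Npy2r. Their part in the differences was not tested. The genes with the largest excess were Gm525 (6.21 ± 0.08), Npy2r (4.23 ± 0.07), Cmtm8, Jak1, Mical1, Arl4d, Vamp8, Blvrb, Rhov and Adk (2.99 ± 0.05). Adk, which encodes adenosine kinase, stood at 1959 to 2717 CPM in Sst Nppb cells. Those with the largest deficit were Hebp2, Atp2b2, Pou4f2, Sytl2, Ntng1, Cbln2, Rph3a, Syt2, Plcxd2 and Scn1a. The first 6 of these had 0 UMIs in Sst Nppb cells. Scn1a, the Nav1.1 channel of myelinated neurons, had 1 UMI there.

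Whether the Sst Nppb cells changed in number was asked from their share of kept cells. The share was 7.25% and 4.66% in the deficient mice 654 and 657, 3.51% and 5.15% in the supplemented mice 670 and 671, and 5.46% and 6.26% in the wild type mice 698 and 699. Exact binomial intervals were about 1 to 2 points wide, such as 6.46% to 8.10% in mouse 654. The deficient mice lay above and below both wild type mice, and the supplemented mice lay below both. Deficient minus wild type was 0.0929 percentage points (exact two-sided permutation p = 1), supplemented minus wild type -1.53 points (p = 0.333 by the same exact test), and deficient minus supplemented 1.63 points (exact permutation p = 0.667). With 2 mice against 2 the smallest possible p is 0.333. Both Ttpa-/- diets minus wild type was -0.720 points (exact permutation p = 0.6, smallest possible 0.0667). The rule needs 5 UMIs and so depends on depth. With every cell thinned to 2000 UMIs and shallower cells left out (1168, 11, 1530, 683, 445 and 114 by mouse), the shares were 6.67% and 2.88% in deficient mice, 3.24% and 3.88% in supplemented mice and 3.78% and 3.88% in wild type mice, and the sign of the last difference turned to 0.341 points. None of the 4 differences reached a p of 0.05, which these numbers of mice cannot reach. Fewer cells of a type and less RNA per cell cannot be told apart where a count of UMIs picks the cells.

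**Figure D4:**
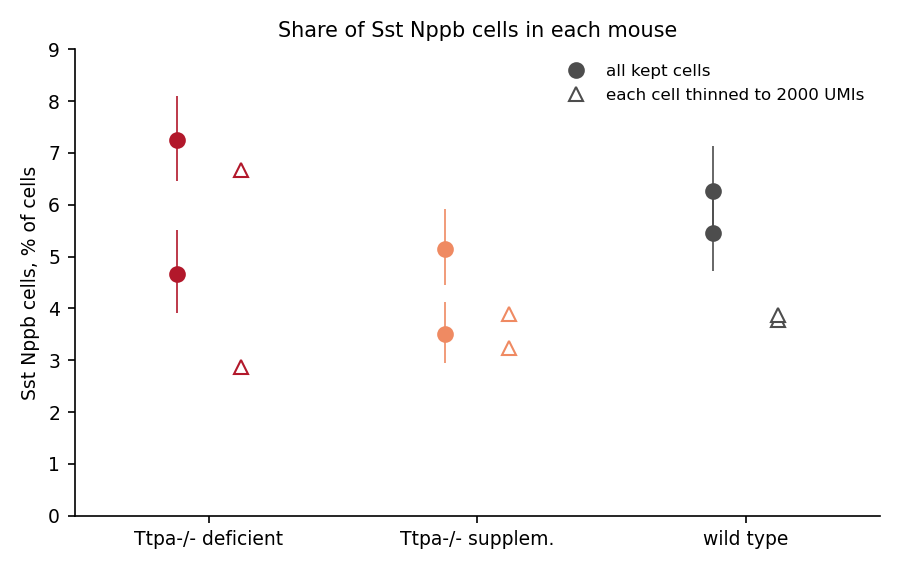
Sst Nppb cells as a percent of cells in each mouse by group, as filled circles over all kept cells with 95% exact binomial intervals and as open triangles after every cell was thinned to 2000 UMIs. The deficient mice stood at 7.25% and 4.66%, the supplemented mice at 3.51% and 5.15% and the wild type mice at 5.46% and 6.26%.

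Ttpa itself had 0 UMIs in the Sst Nppb cells of all 6 mice, and in all other cells 4 and 5 UMIs in deficient mice, 1 and 4 in supplemented mice and 0 and 0 in wild type mice. The count therefore does not check the genotype labels in these cells.

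Between groups, 2 genes stood out in Sst Nppb cells. Necab1, a gene of an EF-hand calcium-binding protein of neurons, was higher in both Ttpa-/- groups. Car8, a relative of the carbonic anhydrases that binds to calcium release channels of the endoplasmic reticulum, was lower in deficient mice. In deficient against wild type mice 2 of 7140 genes tested passed (0.028%), 1 higher and 1 lower, and 247 had an unadjusted p under 0.05. DESeq2 called 0 and limma-voom 1. On simulated counts for deficient against wild type mice the same fit recovered 4 of 50 genes changed 1.5-fold, 35 of 50 changed 2-fold and 50 of 50 changed 4-fold, with 5 false calls among 7073 genes. Only better-counted genes were changed there, and every gene had the same simulated spread between mice (coefficient of variation 12.6%). The simulation therefore does not cover genes with few UMIs, such as Necab1, or with a wider spread. Supplemented against wild type mice gave 1 gene (0.014%), Necab1, with 1 by DESeq2 and 0 by limma-voom. These comparisons share the 2 wild type mice. Taking both Ttpa-/- diets together against wild type gave the same 2 genes, 2 of 7140 (0.028%), with 1 call each by DESeq2 and limma-voom.
Necab1 had 39.0 and 34.4 CPM in deficient mice, 43.0 and 38.3 CPM in supplemented mice, and 2.35 and 5.38 CPM in wild type mice. Those are 39, 23, 19, 28, 2 and 5 UMIs, and all 4 Ttpa-/- values lay above both wild type values. The log2 fold change was 3.14 ± 0.46 in deficient mice (edgeR adjusted p = 0.000709), 3.29 ± 0.47 in supplemented mice (adjusted p = 0.00118) and 3.21 ± 0.42 over both (adjusted p = 0.000102). Without the wild type mouse 698 the first 2 calls ended (adjusted p = 0.113 and 0.188). Where a mouse is left out here and below, the lone mouse of its group is assumed to vary like those of the other groups. They also ended with a gate of 10 or more UMIs (0.0856 and 0.256) and with limma-voom (0.230 and 0.0942), and the deficient call with DESeq2 (0.0617). The call over both diets ended with limma-voom (0.130). The log2 fold change of Necab1 in deficient mice stayed between 2.69 and 3.89 in all 15 alternatives.
Car8 had 0 and 2.99 CPM in deficient mice, 38.4 and 0 CPM in supplemented mice, and 72.8 and 86.0 CPM in wild type mice, from 0, 2, 17, 0, 62 and 80 UMIs. Both deficient mice and 1 supplemented mouse were at or near 0 while mouse 670 was not. The change in deficient mice was -5.91 ± 0.76 (adjusted p = 0.000142). The sums were 2 UMIs in deficient and 142 in wild type mice, and wild type over deficient came to 66.4 (95% counting limits 18.1 and 554). Of 15 alternatives only DESeq2 ended this call (adjusted p = 0.9997, unadjusted 0.0386). In supplemented mice the change was -2.41 ± 0.52 and did not pass (adjusted p = 0.267), with adjusted p from 4.88e-08 to 0.9999 over 15 alternatives. The 5 that called Car8 were no filter on low counts, sex as a term, and leaving out mouse 654, 657 or 670, the last of which held all 17 UMIs (-9.08, adjusted p = 1.05e-06, with mouse 671 alone in its group). Over both diets it was -4.16 ± 0.52 (adjusted p = 8.25e-05), which ended without mouse 699 (adjusted p = 0.056) and with DESeq2.
In Mrgpra3 cells of the same mice Car8 stood at 10.2 and 12.2 CPM in deficient mice, 85.9 and 11.2 CPM in supplemented mice, and 109 and 80.5 CPM in wild type mice, so that the same 3 mice were low as in Sst Nppb cells. In Mrgprd Lpar3 cells it had 2 UMIs in all. Necab1 in Mrgpra3 cells stood at 77.9 and 76.5 CPM in deficient mice, 103 and 70.8 CPM in supplemented mice, and 51.1 and 44.3 CPM in wild type mice. Necab1 (chromosome 4, 14952245 to 15149804 on GRCm38.p6) lies 4.86 Mb from Ttpa (20007894 to 20030822), and Car8 (8141493 to 8239041) lies 11.8 Mb from it on the same chromosome. Genotype and the surrounding chromosome segment cannot be told apart in this design.

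**Figure D5:**
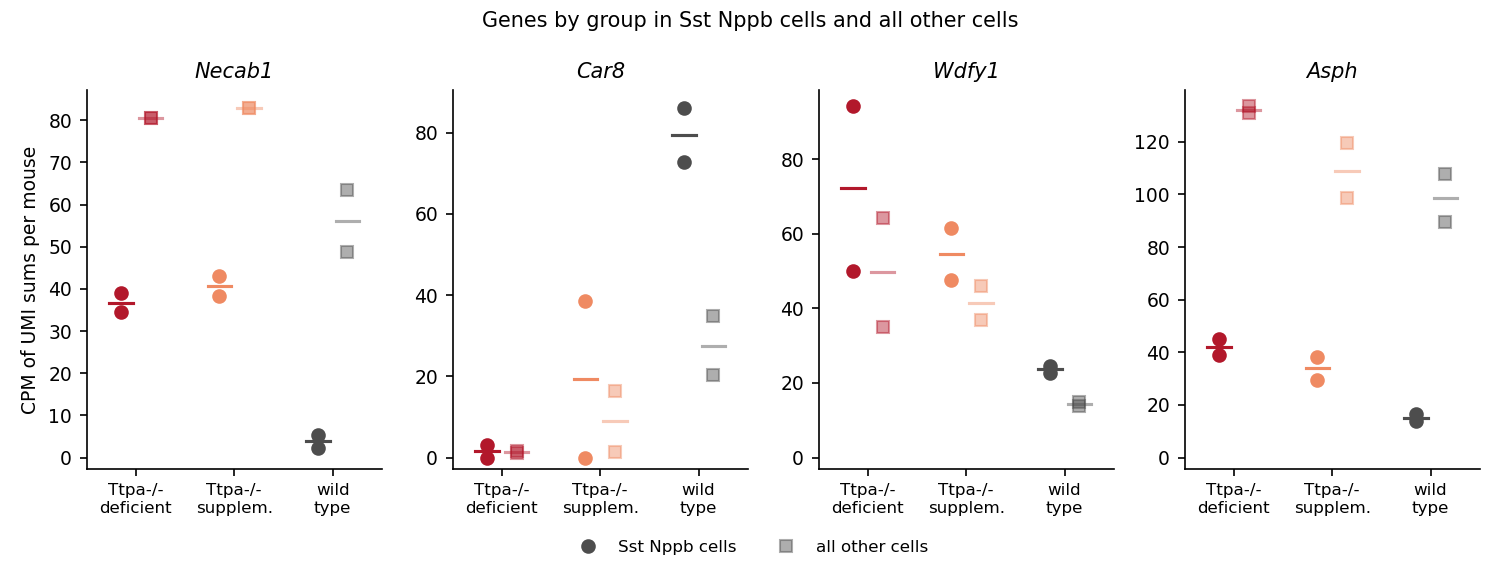
CPM of Necab1, Car8, Wdfy1 and Asph by group (Ttpa-/- deficient, Ttpa-/- supplemented, wild type), 1 point per mouse with a line at the mean of 2 mice, as circles for Sst Nppb cells and as squares for all other cells. In Sst Nppb cells Necab1 was at 34.4 to 43.0 CPM in the 4 Ttpa-/- mice and at 2.35 and 5.38 CPM in wild type mice, and Car8 was at 72.8 and 86.0 CPM in wild type mice.

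The next genes by p in deficient against wild type mice did not pass. Wdfy1, which encodes an endosomal protein that binds phosphoinositides, had 50.1 and 94.3 CPM in deficient mice, 47.5 and 61.6 CPM in supplemented mice, and 24.7 and 22.6 CPM in wild type mice. All 4 Ttpa-/- values were above both wild type values (1.52 ± 0.31 in deficient mice, adjusted p = 0.102), and 6 of 15 alternatives called Wdfy1, among them leaving out mouse 654, 670 or 671. Asph, an aspartyl hydroxylase gene on chromosome 4 and 10.3 Mb from Ttpa, had 45.1 and 38.9 CPM in deficient mice, 29.4 and 38.3 CPM in supplemented mice, and 16.4 and 13.98 CPM in wild type mice (1.43 ± 0.33, adjusted p = 0.336). Crcp, a component of the CGRP receptor, had a value of 1.05 ± 0.27 (adjusted p = 0.860). In supplemented mice Car8, Malat1 (0.95 ± 0.23) and 1700047I17Rik2 (1.27 ± 0.33) were among the next, with adjusted p of 0.267 to 0.806. Summed satellite glia markers in Sst Nppb cells were 529.7 and 589.96 CPM in deficient mice, 531 and 889 CPM in supplemented mice, and 653 and 449.6 CPM in wild type mice, and their part in these values was not tested. Over both diets Gap43, a growth cone protein gene, had -1.50 ± 0.36 (adjusted p = 0.435). It stood at 17.02 and 20.96 CPM in deficient mice, 31.7 and 8.21 CPM in supplemented mice, and 27.0 and 72.1 CPM in wild type mice, groups that overlapped.

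The diet comparison within Ttpa-/- mice gave no call. Of 7140 genes 0 passed in deficient against supplemented mice (0%), with 0 by DESeq2 and 0 by limma-voom, and 207 had an unadjusted p under 0.05 by edgeR, 28 by DESeq2 and 194 by limma-voom. The 5 genes with the smallest p were Ap3m1 (1.21 ± 0.29), Ifitm1 (1.59 ± 0.39), Phip (-1.11 ± 0.28), Plaur (1.18 ± 0.32) and Abca8a (-1.65 ± 0.46), each with an adjusted p of 0.999. Ap3m1, a subunit of the AP-3 vesicle coat, had 70.1 and 74.9 CPM in deficient mice and 27.1 and 32.8 CPM in supplemented mice. Ifitm1, an interferon-induced membrane protein gene, had 136 and 50.9 CPM in deficient mice and 33.9 and 30.1 CPM in supplemented mice. Necab1 stood at -0.14 in this comparison.

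The genes that mark the cells gave no call between groups, and those of the rule were not tested. Jak1 had 2277 and 2261 CPM in deficient mice, 2266 and 2398 CPM in supplemented mice, and 2274 and 2238 CPM in wild type mice. Sst averaged 1690.4 CPM in deficient mice, 1749 CPM in supplemented mice and 1670 CPM in wild type mice, and Nppb 1366, 1250.5 and 1176 CPM. Il31ra had 136 and 123 CPM in deficient mice, 106 and 108 CPM in supplemented mice, and 77.5 and 113 CPM in wild type mice, so that the wild type mice spanned the supplemented ones. Cysltr2 was the receptor with the smallest p of its list over both diets, with 52.1 and 74.9 CPM in deficient mice, 63.3 and 60.2 CPM in supplemented mice, and 77.5 and 100.03 CPM in wild type mice. All 4 Ttpa-/- values were below both wild type values, but the change of -0.56 ± 0.21 did not pass (unadjusted p = 0.0119, adjusted p = 0.9997).

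No list of genes gave further calls between groups. Over both Ttpa-/- diets against wild type, Car8 and Necab1 were the 2 called members of the calcium and G protein signalling list (39 tested, 1 higher and 1 lower), and none of the other 14 lists had a called member. The lists were chosen with earlier results of these data known, so the place of both genes in 1 list is not a separate result. Of 14 itch and inflammatory receptors tested, 12 were below and 2 above 0 (median -0.12, against -0.00327 over all 7140 genes). Of 13 mitochondrially encoded genes, 13 were below 0 in both diets together (median -0.39), 13 in deficient mice (median -0.36) and 11 in supplemented mice (median -0.40), with 0 called in each. The first by p, mt-Cytb of respiratory complex III, had 1728 and 2549.98 CPM in deficient mice, 1579 and 2105 CPM in supplemented mice, and 3116 and 2544 CPM in wild type mice (-0.54 ± 0.16, adjusted p = 0.9997). The median mitochondrial share of UMIs was 2.05% and 3.43% in deficient mice, 2.22% and 2.65% in supplemented mice, and 3.46% and 3.26% in wild type mice, with smaller libraries and lower shares in mice 654 and 670. The part of library depth in this was not tested. Cholesterol genes stood above 0 for 18 of 24 (median 0.11), led by Stard4, a sterol carrier, at 0.65 ± 0.26. The first member by p in each other list was Pam (0.52 ± 0.16), Hspa1a (0.49 ± 0.21, with a near-identical copy in Hspa1b), Snap25 (-0.29 ± 0.15), Kcnt1 (-0.44 ± 0.23), Txn1 (-0.30 ± 0.16), Isl2 (0.30 ± 0.16), Lrp8 (-0.71 ± 0.46), Lifr (-0.19 ± 0.15), Prkg1 (0.37 ± 0.37) and Gfra4 (-0.36 ± 0.47), each with an adjusted p of 0.9997. For axon injury genes it was Gap43. The antioxidant list, which holds glutathione peroxidases, peroxiredoxins and thioredoxins, had 15 of 30 above 0 and a median of 0.000351 in both diets together.

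The log2 change in Necab1 was larger in Sst Nppb cells than in the other cells of the same mice. It was taken from only 7 UMIs in the wild type Sst Nppb cells, and the changes in CPM were not compared by a test. Other cells held 80.6 and 80.6 CPM of Necab1 in deficient mice, 83.0 and 82.9 CPM in supplemented mice, and 63.3 and 48.8 CPM in wild type mice. A test of the difference between the 2 cell sets, with mouse as a block, gave 2.67 ± 0.47 for deficient against wild type mice (adjusted p = 0.000225), 2.76 ± 0.49 for supplemented against wild type mice (adjusted p = 0.000246) and 2.71 ± 0.44 for both (adjusted p = 9.22e-06). These tests covered 12535 genes, of which 16 passed in deficient mice (0.128%), 1 higher (0.00798%) and 15 lower (0.12%). In supplemented mice 3 passed (0.0239%), 1 higher (0.00798%) and 2 lower (0.016%), and for both 14 passed (0.112%), 1 higher (0.00798%) and 13 lower (0.104%), with 0 for deficient against supplemented mice (0%). DESeq2 and limma-voom called 0 in each, where 131 and 627 genes had an unadjusted p under 0.05 in deficient mice. Without mouse 698 the difference for Necab1 no longer passed in any of the 3 (adjusted p = 0.105, 0.179 and 0.0669), nor in deficient mice without mouse 654 (0.0814). With a gate of 10 UMIs it passed for both diets (0.0113) and not for deficient (0.0692) or supplemented mice (0.199) alone. For Car8 the difference between the cell sets passed in none of 16 alternatives (lowest adjusted p 0.106, for both diets). The other cells are a mix of types, and their make-up differed. Mrgprd Lpar3 cells made up 9.30% and 10.2% of kept cells in deficient mice, 7.50% and 7.60% in supplemented mice, and 6.90% and 5.39% in wild type mice. The part of this mix in the called differences was not tested.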

How the data were processed

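Dorsal root ganglion cells of 6 mice were captured on a droplet platform with 3′ tags. The authors deposited 1 table of UMI counts per gene and cell for all libraries (27998 genes, 21685 cells). Per the submitters' processing notes the tools were bcl2fastq 2.17.1.14, Cell Ranger 2.0.1, Seurat 2.3.0 and limma 3.32.10, with build mm10, and the filters that led to the table are not given in the sources used here. Cells were tied to mice by the suffix of their barcodes.

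Of the cells 27 were left out for under 500 detected genes or a mitochondrial share of UMIs over 20%. Scrublet's own cut marked 45 cells, under 0.5%, so the highest-scoring cells of each library were removed at 0.8% per 1000 cells (634 in all). Counts were summed per mouse and cell set and fitted with edgeR 4.0.16 (TMM, quasi-likelihood test, R 4.3.3) with Benjamini-Hochberg adjustment. The 9 genes of the rule stayed in the library size and were not tested. Alternatives used DESeq2 1.42.0, limma 3.58.1 (voom), other size factors, no filter on low counts, sex as a term, other thresholds for the cells, thinned sums, and leaving out each mouse; 2 alternatives for the difference between cell sets, with Mrgpra3 or Mrgprd Lpar3 cells as the other cells, were chosen after seeing the data. The fit was tested on simulated counts. Shares were compared by exact two-sided permutation tests. Counting limits and floors (3 counts) cover counting error only.

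The members and the 15 gene lists were chosen with earlier results of these data known. Named genes were, per group contrast, those called with an average log2 CPM of 4 or more and groups that did not overlap, or else the 5 with the smallest p; per cell set, the 10 with the largest change in each direction among called genes with an average log2 CPM of 5 or more; per difference between sets, the 5 with the smallest p in each direction; and list members by p or level. A few genes that this rule names are not reported here. Some list members named between cell sets were chosen after their values were seen. The labels name a mouse per library, so p-values measure the spread between mice. Python 3.11.15, scanpy 1.11.5, numpy 2.4.6, scipy 1.17.1, pandas 2.3.3 and matplotlib 3.10.9 were used.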

Additional observations from a re-analysis of the deposited data

Results flagged for a closer look

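Each result here is a group effect that differed between Sst Nppb cells and all other cells of the same mice in a test of that difference (edgeR, mouse as a block, log2 scale, positive where the effect was higher in Sst Nppb cells). DESeq2 and limma-voom called 0 of 12535 genes in each of these tests.

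For deficient against wild type mice the difference was 2.67 ± 0.47 for Necab1, -0.59 ± 0.12 for Txn1 (thioredoxin), -0.99 ± 0.20 for Lgals3 (galectin 3), -0.80 ± 0.17 for Vamp8 (a vesicle fusion protein), -0.87 ± 0.18 for Cmtm8 and -0.64 ± 0.13 for Wbp5. All 6 calls ended without mouse 654, and without mouse 699 those of Txn1 (-0.26), Lgals3 (-0.29), Vamp8 and Wbp5 ended. Without mouse 698 the call of Necab1 ended, and the value was -0.94 for Txn1 and -1.60 for Lgals3. Vamp8 had 245 and 232 CPM in deficient and 263 and 271 CPM in wild type Sst Nppb cells, and 37.5 and 26.6 CPM in deficient and 21.7 and 20.3 CPM in wild type other cells. Txn1 had 589.7 and 554 CPM in deficient and 692 and 716 CPM in wild type Sst Nppb cells, and 1995 and 1587 CPM in deficient and 1831 and 1225 CPM in wild type other cells.

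For supplemented against wild type mice it was 2.76 ± 0.49 for Necab1, -0.67 ± 0.14 for Bhlhe41 (a transcription factor gene) and -0.71 ± 0.15 for Gm525. With Mrgpra3 or Mrgprd Lpar3 cells as the other cells the value for Gm525 turned to 3.38 and 0.00458. The Gm525 call ended without mouse 670 (-0.40) or 698, the Bhlhe41 call without mouse 670, 671 or 699, and the Necab1 call without mouse 698. For both Ttpa-/- diets against wild type it was 2.71 ± 0.44 for Necab1, -0.77 ± 0.15 for Vamp8, -0.69 ± 0.13 for Gm525, -0.60 ± 0.12 for Wbp5, -1.23 ± 0.25 for Gap43 and -0.56 ± 0.12 for Bhlhe41. The value for Gm525 turned to 3.28 and 0.119 with those other cells. Without mouse 654 the calls of Vamp8, Gm525 (-0.42), Wbp5 and Bhlhe41 ended, and without mouse 699 those of Vamp8, Wbp5, Gap43 (-0.44) and Bhlhe41. The Gap43 call also ended without mouse 671, the Gm525 call without mouse 670 or 698, the Bhlhe41 call without mouse 670 and the Necab1 call without mouse 698. Without mouse 670 the value for Gap43 was -1.84. Gm525 had 19.8, 10.1, 21.5 and 13.7 CPM in the other cells of the 4 Ttpa-/- mice and 8.96 and 11.7 CPM in those of wild type mice, against 897 to 1042 CPM in Sst Nppb cells of all mice. The other cells held more Mrgprd Lpar3 cells in Ttpa-/- mice, 7.50% to 10.2% of kept cells against 5.39% and 6.90% in wild type mice. Gm525 had a UMI in only 0.427% of Mrgprd Lpar3 cells. The other cells also held the cells with 1 to 4 Sst and Nppb UMIs, which stood at 420 to 573 CPM of Gm525. In the other cells the 7 Sst Nppb markers summed to 114 and 66.3 CPM in deficient mice, 96.9 and 68.6 CPM in supplemented mice, and 51.9 and 70.7 CPM in wild type mice. The part of either in the differences was not tested.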

How the results depend on the processing

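In Sst Nppb cells the count of called genes for deficient against wild type mice was 2, and 5 with no filter on low counts, 0 with DESeq2, 1 with limma-voom and 1 with a gate of 10 UMIs. Supplemented against wild type gave 1, and 6 with no filter, 0 with limma-voom, 0 with a gate of 10 UMIs and 2 with sex as a term. Deficient against supplemented gave 0, and 4 with no filter. Both diets against wild type gave 2, and 6 with no filter, 1 with DESeq2 and 1 with limma-voom. Leaving out each mouse gave 1 to 4, 0 to 6, 0 to 3 and 2 to 7 in the same order of contrasts. For deficient mice the 1 came without mouse 698, and 4 without mouse 654 or 657, with 3 without each other mouse. For supplemented mice the 0 came without mouse 698, 6 without mouse 654 or 657, 2 without mouse 670 or 699, and 1 without mouse 671. Between the diets 3 came without mouse 654 or 657 and 1 without mouse 671. For both diets 7 came without mouse 657, 5 without mouse 654 and 4 without mouse 670.

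For the difference between Sst Nppb and other cells, deficient against wild type gave 16 genes, and 9 with no filter, 0 with DESeq2, 0 with limma-voom, 2 with a gate of 10 UMIs, 3 with thinned sums, 5 with Mrgpra3 cells and 1 with Mrgprd Lpar3 cells as the other cells. Supplemented against wild type gave 3, and 0 with DESeq2, 0 with limma-voom, 6 with no cell filter and doublets kept, 9 with a gate of 3 UMIs, 1 with a gate of 10, 1 with thinned sums and 1 with Mrgpra3 cells. Deficient against supplemented gave 0, and 1 with no cell filter, 5 with a gate of 3 and 1 with thinned sums. Both diets gave 14, and 0 with DESeq2, 0 with limma-voom, 5 with a gate of 10, 7 with thinned sums, 5 with Mrgpra3 cells and 2 with Mrgprd Lpar3 cells. Leaving out each mouse gave 0 to 41, 2 to 18, 0 to 0 and 3 to 29, the highest without mouse 698 in each of the 3 contrasts with calls. The lowest came without mouse 654 in deficient mice and for both diets, and without mouse 670 in supplemented mice. The value for Gm525 turned to 3.38 and 0.00458 in supplemented mice and to 3.28 and 0.119 for both diets with Mrgpra3 and Mrgprd Lpar3 cells as the other cells. Gm525 had 3 UMIs in Mrgpra3 cells.

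Against Mrgpra3 cells 3714 genes were called, and 2458 with DESeq2. Leaving out each mouse gave 3350 to 3659 against Mrgpra3 cells, 4658 to 4932 against Mrgprd Lpar3 cells and 6069 to 6275 against all other cells. The share difference for deficient against wild type mice turned to -0.208 points with a gate of 10 UMIs and ran from -1.20 (without mouse 654) to 1.39 points with a mouse left out. That for both diets turned to 0.341 points with thinned cells and ran from -1.42 to -0.176 with a mouse left out. Supplemented minus wild type ran from -2.35 to -0.713 and deficient minus supplemented from 0.330 to 2.92. The cause of these moves was not tested. Mice could not be paired by number because the groups compared share no replicate numbers. Each group holds 1 female and 1 male, and sex entered as a term in 1 alternative.

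Each group holds 2 mice, and genotype, age and diet cannot be told apart between Ttpa-/- and wild type. Sums of 442152 to 998735 UMIs leave genes under about 3 to 7 CPM at the level of 3 counts in a mouse.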
